A study of Mus musculus with 2 samples.

Results

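The genes described here are 10 components of the vascular basement membrane: Col4a1, Col4a2, Col18a1, Lama4, Lamb1, Lamc1, Nid1, Nid2, Hspg2 and Sparc. They were chosen by symbol among the 32285 genes counted, and each was found under 1 identifier. They were followed in eYFP+ cells sorted from mouse embryos at E13.5, in a control library, Isl1-Cre;R26R-eYFP, and a mutant library, Isl1-Cre;R26R-eYFP;Pik3caH1047R. Both genotypes carry Isl1-Cre, a recombinase expressed in Isl1+ progenitors such as those of the cardiopharyngeal mesoderm, and the eYFP reporter at the Rosa26 locus that marks their descendants; the mutant adds the activated PI3-kinase subunit, also expressed after recombination. Each library pooled 3 embryos of 1 genotype and was made with the 10x Genomics 5′ assay, which tags every captured transcript with a unique molecular identifier (UMI). The labels call the tissue pharyngeal arch, whereas the dissection described took in the whole upper body above the liver. With 1 library per genotype there is no replicate, so values are compared without a test and every interval printed covers counting error only.

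The basement membrane is a thin sheet of matrix on the outer face of the endothelium, beneath epithelia and around muscle fibres. Laminins, trimers of an alpha, a beta and a gamma chain, form the sheet that lies on the cells and binds integrins and dystroglycan, and collagen IV forms a second network that gives the sheet its strength. Nidogens and the proteoglycan perlecan bridge the networks, collagen XVIII is a proteoglycan at the matrix side that releases endostatin on cleavage, and Sparc is a collagen-binding glycoprotein found with newly deposited collagen IV. Mutations in Col4a1 or Col4a2 cause fragile vessels, and the basement membrane of growing vessels is remodelled as they sprout.

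In the GENCODE annotation of GRCm38, the build of the files, Col4a1 lies on chromosome 8 from 11198423 to 11312826 on the minus strand and Col4a2 from 11312805 to 11449287 on the plus strand, so the genes are arranged head to head and their annotated first exons overlap. The promoter windows of this pair are printed because the chains form 1 trimer and their UMIs moved together in the values given further on. The windows run from 250 bases before to 50 bases from the start site in RefSeq (GRCm38.p6), 5′ to 3′ on the strand of each gene. Capitals mark the 78 bases that both windows hold, chr8:11312777-11312854, in which the start sites lie 21 bases apart.
Col4a1, chr8:11312777-11313076, minus strand: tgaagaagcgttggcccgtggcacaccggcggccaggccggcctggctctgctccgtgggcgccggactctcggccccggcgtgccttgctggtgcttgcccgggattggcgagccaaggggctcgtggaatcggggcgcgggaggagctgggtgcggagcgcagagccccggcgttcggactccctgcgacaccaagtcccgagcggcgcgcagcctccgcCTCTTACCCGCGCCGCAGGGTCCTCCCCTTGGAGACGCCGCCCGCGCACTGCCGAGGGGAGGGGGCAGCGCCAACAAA
Col4a2, chr8:11312555-11312854, plus strand: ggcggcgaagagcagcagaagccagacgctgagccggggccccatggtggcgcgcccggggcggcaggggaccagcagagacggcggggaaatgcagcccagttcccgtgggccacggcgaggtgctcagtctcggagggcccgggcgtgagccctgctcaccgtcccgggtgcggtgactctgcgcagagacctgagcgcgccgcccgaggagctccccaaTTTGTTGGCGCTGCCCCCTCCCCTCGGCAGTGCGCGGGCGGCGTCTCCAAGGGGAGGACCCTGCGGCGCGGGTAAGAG
The windows had a GC content of 74.0% and 73.7%, against a median of 52.7% over 32817 promoter windows of the same length. Both held a GC box (GGGCGG on either strand) and a CCAAT box (CCAAT on either strand), letters present in 35.6% and 37.4% of all windows. Of the 10 genes, 7 had a window, 8 windows in all. Of these, 6 held the GC box and 5 the CCAAT box, whereas none held TATAAA (13.6% of all windows), ACGTG (19.6%) or TGACTCA (5.20%), again on either strand. These are matches of letters only.

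The other genes lie on chromosome 10 (Col18a1, 77052178 to 77166548 on the minus strand, and Lama4, 38965515 to 39110188 on the plus strand), chromosome 12 (Lamb1, 31265234 to 31329644, plus), chromosome 1 (Lamc1, 153218922 to 153332786, minus), chromosome 13 (Nid1, 13437551 to 13512269, plus), chromosome 14 (Nid2, 19751265 to 19811787, plus), chromosome 4 (Hspg2, 137468769 to 137570630, plus) and chromosome 11 (Sparc, 55394500 to 55423183, minus). No counted gene overlaps any of the 10 on the same strand. Col4a1, Col4a2, Col18a1, Nid1 and Nid2 overlap counted genes on the other strand, and the sources used here do not state whether counting used strand.

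After the filters on cells, 2783 control cells with 63153191 UMIs and 3489 mutant cells with 69717583 UMIs remained. They formed 16 clusters, which were classed by fixed markers; a class is called X-like because the names were rebuilt, and the 10 genes were left out of the genes used for clustering. The endothelium-like class held 146 control and 694 mutant cells, with medians of 20162 and 17177 UMIs per cell, and all 18 endothelial markers were raised in it. The control pool was mostly female by its Xist and Y-linked UMIs (95.5% of its cells female-like), whereas in the mutant pool 33.6% of cells were female-like and 53.3% were male-like. The libraries shared 12 cell barcodes among the kept cells. A hepatoblast-like cluster, with the liver genes Alb and Afp among its top genes, held 47 mutant and 0 control cells. Whether the pools held the same tissue was not tested. A mixed blood cluster, led by Mpo and Ccl4 and left unnamed, is given with the neuron-like cells as a low-level comparison. In control, its 114 Col4a1 UMIs lay in 22 of 174 cells and its 439 Sparc UMIs in 68. Whether such UMIs came from free RNA, doublets or the cells themselves was not tested.

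First, the distribution of the genes over cell classes was examined. All 10 were higher in endothelium-like cells than in all other cells together, by more than 1.5-fold with the whole interval in each library; 9.03% of genes met the same rule in the control library and 11.3% in the mutant library. In control, Col18a1 was 12.6-fold, Hspg2 12.1-fold, Col4a1 8.06-fold, Col4a2 7.74-fold and Lama4 5.66-fold higher. The ratio was smallest for Lamb1 (1.91-fold), followed by Nid2 (2.31-fold), Sparc (2.62-fold), Lamc1 (2.81-fold) and Nid1 (3.03-fold). This contrast between clusters is a description. The 10 genes together made up 0.645% of all endothelial UMIs in control and 0.537% in mutant, against 0.0405% and 0.0193% in neuron-like cells.

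The 7 classes with at least 50 cells in each library were ordered for each gene by UMIs per 1000000 UMIs of the class (CPM). Collagen IV was highest in endothelium-like cells, with Col4a1 at 1525 CPM in control (interval 1483 to 1569) and 1426 CPM in mutant (1407 to 1446). In control, branchial muscle-like cells came next at 279 CPM, followed by mesenchyme-like cells at 155 CPM, epithelium-like cells at 113 CPM and mesothelium-like cells at 67.2 CPM. Cardiomyocyte-like cells at 38.1 CPM and neuron-like cells at 37.8 CPM were last, and these levels overlapped. In mutant, the order below the endothelium changed: mesenchyme-like cells at 176 CPM and mesothelium-like cells at 160 CPM, whose intervals overlapped, stood above epithelium-like cells at 120 CPM and branchial muscle-like cells at 101 CPM.

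The endothelium did not lead for every gene. Sparc was highest in mesothelium-like cells, the lining of the body cavities, at 3318 CPM in control and 2822 CPM in mutant, ahead of endothelium-like cells at 2011 and 1562 CPM. Nid2 was also highest in mesothelium-like cells, at 263 and 186 CPM. Among the 7 classes, Lama4, the alpha chain of the laminins of vessels and of mesenchyme, was lowest in epithelium-like cells, at 5.11 and 4.03 CPM. Col18a1 had an epithelial second place among them, with 200 CPM in control and 216 CPM in mutant. Smaller classes, not compared between genotypes, exceeded control endothelium-like cells for some genes. In 54 control neural crest-like cells Nid1 stood at 318 CPM, Lamb1 at 303 CPM and Sparc at 2289 CPM. In 39 control mural-like cells Nid1 stood at 298 CPM and Lamc1 at 283 CPM. Control endothelium-like cells held 222 CPM of Nid1, 212 CPM of Lamb1, 2011 CPM of Sparc and 223 CPM of Lamc1. In control the other genes did not exceed the endothelium-like level in these classes. There, Lama4 stood at 401 CPM in the neural crest-like cells, and Col18a1 had 1 UMI in the mural-like cells. Col4a1 stood at 676 and 390 CPM in these control classes, above the muscle-like cells. In mutant, Lama4 stood at 207 CPM in 25 neural crest-like cells against 184 CPM in endothelium-like cells. Nid2 stood at 62.6 CPM in 26 mutant mural-like cells against 58.7 CPM. The intervals overlapped for both.

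**Figure D1:**
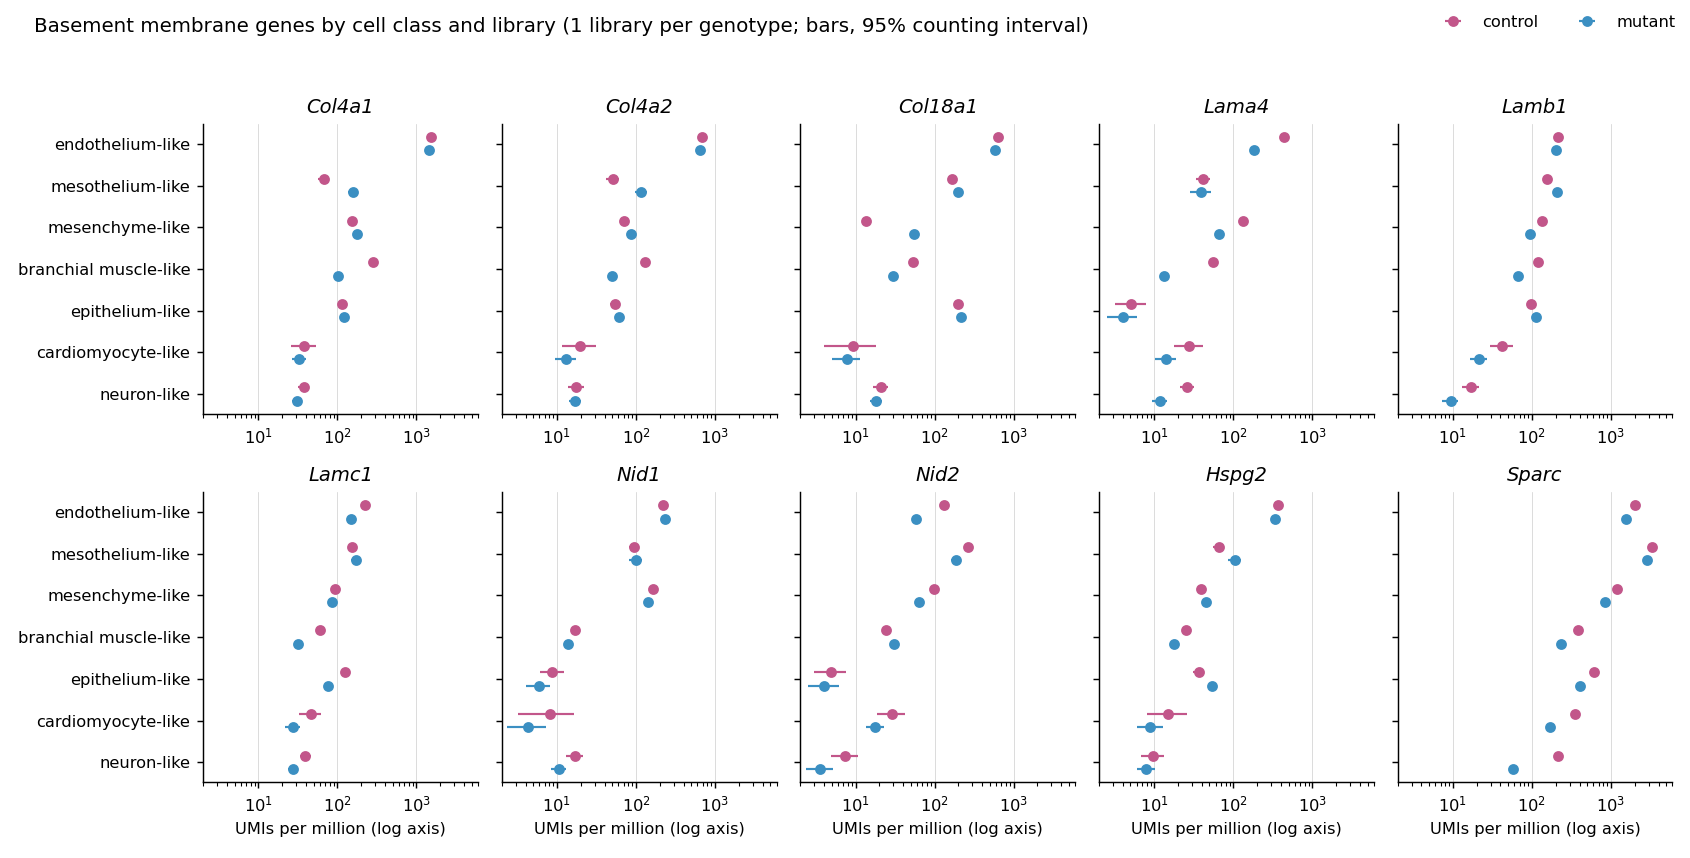
Levels of the 10 genes in 7 cell classes, with 1 panel per gene, CPM on a log axis, control in pink and mutant in blue, and bars for 95% exact Poisson intervals. Endothelium-like cells lie farthest right in both libraries except for Sparc and Nid2, and for Lamb1 and Lamc1 in the mutant library, where mesothelium-like cells are as high or higher.

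Detection per cell was compared in cells thinned to 5000 UMIs each; 3 control and 32 mutant endothelium-like cells were too shallow. At this depth an endothelium-like cell held UMIs of a median of 7 of the 10 genes in both libraries, a mesenchyme-like cell 4 in control and 3 in mutant, and a neuron-like cell 0. Col4a1 was found in 93% of control and 93.2% of mutant endothelium-like cells, and in 7.57% and 7.06% of neuron-like cells. Sparc was found in 96.5% and 93.7% of endothelium-like cells, and in 20.5% and 13.47% of neuron-like cells. Unthinned median depths were 17114 and 13771 UMIs per neuron-like cell.

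To examine the effect of Pik3caH1047R, mutant and control were compared within endothelium-like cells, which held 3185963 UMIs in control and 13859378 in mutant. Lama4 and Nid2 were lower in mutant beyond 1.5-fold with the whole interval, and the other 8 genes were not. Thus 2 of 10 were lower, where 4.53% of the 14140 genes with at least 20 UMIs were, and 0 of 10 were higher, where 4.75% were. The median log2 ratio of the 10 genes was -0.13, and that of all genes was -0.06. The chains of collagen IV were near their control level.

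The laminin chains differed from each other. Lama4 had 1395 UMIs (438 CPM) in control and 2556 UMIs (184 CPM) in mutant, a log2 ratio of -1.25 (interval -1.34 to -1.15), that is 2.37-fold lower. Its partner Lamb1, the beta 1 chain, stood at 212 CPM in control and 202 CPM in mutant, which gives -0.07 on the log2 scale (-0.19 to 0.06), an interval that held 0. Lamc1, the gamma 1 chain, stood at 223 and 147 CPM, with a log2 ratio of -0.60 (-0.72 to -0.47), which was below 0 but reached inside 1.5-fold. The number of Lamb1 UMIs per Lamc1 UMI was accordingly 0.949 for the control library (0.853 to 1.06) and 1.37 for the mutant one (1.29 to 1.45). A 5′ tag counts transcripts rather than bases, so these ratios are not divided by length, but capture can differ between transcripts and only the shift between libraries is read.

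The nidogens, which link laminin to collagen IV, also separated. Nid2 fell: its 413 control UMIs made 130 CPM and its 814 mutant UMIs made 58.7 CPM, which is -1.14 on the log2 scale (-1.31 to -0.97). Nid1, its close relative, stood at 222 CPM in control and 233 CPM in mutant, a log2 ratio of 0.07 (-0.05 to 0.19). The endothelium thus held 0.584 Nid2 UMIs per Nid1 UMI in control (0.516 to 0.660) and 0.252 in mutant (0.233 to 0.273).

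Collagen IV changed little. Col4a1 had a log2 ratio of -0.10 (-0.14 to -0.05), and Col4a2, at 681 CPM in control and 637 CPM in mutant, also had -0.10 (-0.17 to -0.03). Both signs turned under another scaling of the libraries, to 0.021 and 0.020 with TMM factors and to 0.0060 and 0.0051 with the median ratio of genes. These scalings moved every log2 ratio in endothelium-like cells by 0.12 and 0.10. There were 0.447 Col4a2 UMIs per Col4a1 UMI in control and 0.446 in mutant, and between 0.393 and 0.550 in epithelium-, muscle-, mesenchyme-, neuron- and cardiomyocyte-like cells of either library. Mesothelium-like cells, with few UMIs of either, had 0.753 and 0.734. Across thinned endothelium-like cells, Col4a1 and Col4a2 had Pearson's r of 0.72 in 143 control cells and 0.73 in 662 mutant cells, the highest of the 45 pairs of genes, whose median was 0.25 in control and 0.26 in mutant. Cells of a library share its processing, and no p is given for these values.

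The remaining genes were slightly lower. Col18a1 stood at 636 CPM in control and 585 CPM in mutant, a log2 ratio of -0.12 (-0.19 to -0.05). Hspg2, which encodes perlecan, stood at 372 and 337 CPM, with -0.14 (-0.23 to -0.05). Sparc stood at 2011 and 1562 CPM, with -0.36 (-0.40 to -0.32), inside 1.5-fold.

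**Figure D2:**
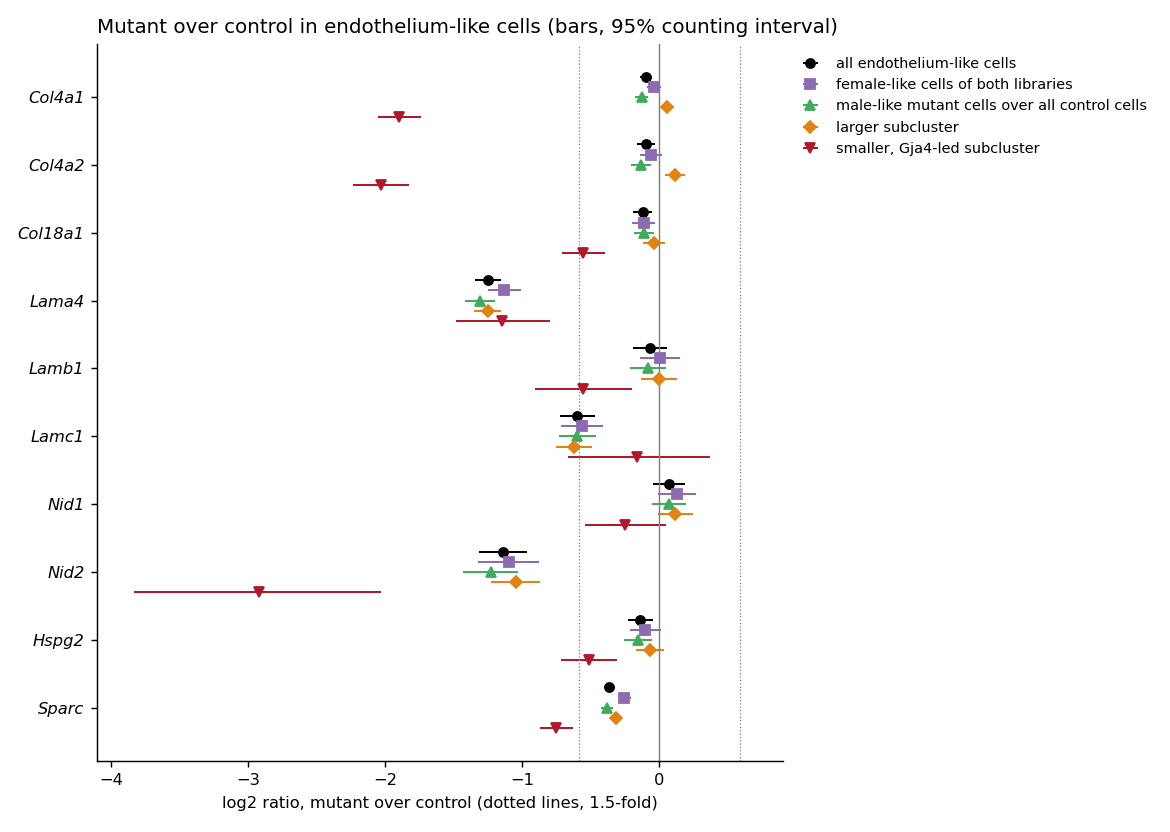
Log2 ratio of mutant over control in endothelium-like cells for the 10 genes, for all cells and within sexes and subclusters, with bars for 95% counting intervals and dotted lines at 1.5-fold. Lama4 and Nid2 lie left of the dotted line in all 5 sets of cells, whereas Col4a1 and Col4a2 do so in the smaller subcluster only.

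The per-cell distributions showed the same genes. In thinned cells the quartiles of Lama4 were 0, 2 and 3.5 UMIs in control and 0, 1 and 2 in mutant, and the share of cells with a UMI was 72.7% (64.7 to 79.8%) and 51.2% (47.3 to 55.1%). For Nid2 the shares were 35.7% (27.8 to 44.1%) and 21.8% (18.7 to 25.1%). Col4a1 had quartiles of 2, 6 and 10 UMIs in control and 3, 6 and 11 in mutant. In neuron-like cells the thinned shares were 8.11% and 4.19% for Lama4 and 2.16% and 1.55% for Nid2. Before thinning, 91.8% of control and 78.2% of mutant endothelium-like cells held a Lama4 UMI, 63.0% and 47.1% a Nid2 UMI, and 92.5% and 97.6% a Col4a1 UMI.

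Embryo sex differed between the pools, so the sexes were separated. Among female-like cells, 131 control and 232 mutant, Lama4 had a log2 ratio of -1.13 (453 CPM in control, 207 CPM in mutant) and Nid2 of -1.10 (133 and 62.1 CPM). In 379 male-like mutant cells set against all control cells, the ratios were -1.31 and -1.23. Within the mutant library, male-like over female-like cells had log2 ratios between -0.23 and -0.05 for the 10 genes. Within phases of the cell cycle, Lama4 had -1.12 in G1, -1.56 in S and -1.07 in G2M, and Nid2 had -0.92, -1.21 and -1.36. Lamc1 also lay beyond 1.5-fold in S, at -0.82 (-1.04 to -0.59).

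At resolution 0.8 the class split into 2 subclusters of similar weight in both libraries. The smaller one held 13% of control and 12.4% of mutant endothelium-like cells, 19 and 86 cells. Its whole cluster, led by Gja4, Fbln5 and Tbx20, also held 10 control and 55 mutant mesenchyme-like cells. These leading genes were ranked over the whole cluster, not over its endothelium-like cells alone. Gja4 marks arterial endothelium, and Tbx20 is a transcription factor of the heart. In control, the endothelium-like cells of this subcluster were richer than those of the larger one in Hspg2 (794 against 325 CPM) and Col18a1 (1336 against 559 CPM). They were poorer in Lamc1 (126 against 234 CPM). In mutant the order of Hspg2 (556 against 309 CPM) and Col18a1 (909 against 543 CPM) was as in control.

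For collagen IV the order was not the same in both libraries. In the smaller subcluster Col4a1 had 606 UMIs in control, or 1910 CPM, against 806 UMIs in mutant, or 513 CPM, a log2 ratio of -1.90 (-2.05 to -1.74), and Col4a2 at 1138 and 279 CPM, a log2 ratio of -2.03 (-2.23 to -1.82). In the larger subcluster Col4a1 stood at 1483 and 1543 CPM, a log2 ratio of 0.06 (0.01 to 0.11), and Col4a2 at 631 and 682 CPM, 0.11 (0.04 to 0.19). The 19 control cells are few, and the makeup of the smaller subcluster can differ between the libraries, which was not tested. Nid2 had a log2 ratio of -2.92 (-3.83 to -2.03) in the smaller subcluster, on 29 control and 19 mutant UMIs, and -1.05 (-1.23 to -0.87) in the larger one. Lama4 had -1.14 (-1.48 to -0.80) and -1.25 (-1.35 to -1.15). Sparc had -0.75 (-0.87 to -0.63) in the smaller subcluster and -0.32 (-0.36 to -0.27) in the larger one.

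Markers of other cell types were followed in endothelium-like cells. The 12 mesenchymal markers summed to 179 CPM in control and 77.2 CPM in mutant with none at 0, and the 9 mural markers to 108 and 118 CPM. The sum of the 18 endothelial markers was 7560 and 7392 CPM. In mesenchyme-like cells themselves Lama4 stood at 134 CPM in control and 66.7 CPM in mutant, and Nid2 at 99 and 64.0 CPM. The part of mesenchymal RNA in the lower Lama4 and Nid2 was not tested. In the unnamed blood cluster Lama4 stood at 9.02 CPM in control and 0.80 CPM in mutant, and Nid2 at 15.2 and 6.0 CPM. Whether these UMIs were free RNA was not tested.

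The comparison was then extended to the other classes. In branchial muscle-like cells, 889 control and 842 mutant, the fall took in most of the genes: 7 of 10 were lower in mutant beyond 1.5-fold, where 3.97% of 15709 genes were, and 0 were higher, where 7.63% were. The median log2 ratio of the 10 genes was -0.82, and that of all genes 0.02. Lama4 stood at 54.7 CPM in control and 13.2 CPM in mutant, a log2 ratio of -2.05 (-2.25 to -1.85). Col4a1 stood at 279 and 101 CPM, -1.46 (-1.54 to -1.39), and Col4a2 at 131 and 50.2 CPM, -1.38 (-1.49 to -1.28). Lamc1 (-0.91), Lamb1 (-0.83), Col18a1 (-0.81) and Sparc (-0.72) made up the 7.

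Nid2 went the other way in muscle. It stood at 24.1 CPM in control and 31.0 CPM in mutant, a log2 ratio of 0.36 (0.20 to 0.53), so that the gene lower in mutant endothelium was slightly higher in mutant muscle. The values for Hspg2 (-0.51) and Nid1 (-0.30) lay below 0 and reached inside 1.5-fold.

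The muscle-like class held 3 clusters, and collagen IV was lower in mutant in each. In the cluster led by Pax7, the transcription factor of muscle progenitors, which held 147 control and 182 mutant cells, Col4a1 stood at 991 CPM in control and 261 CPM in mutant, a log2 ratio of -1.92 (-2.07 to -1.78), and Lama4 at 221 and 30.4 CPM, -2.86 (-3.29 to -2.45). In the cluster led by Msc, with 549 and 519 cells, Col4a1 stood at 251 and 95.5 CPM. In the cluster led by Myh3, an embryonic myosin of differentiating fibres, with 193 and 141 cells, it stood at 101 and 40.0 CPM. Thus Col4a1 was highest in the progenitor cluster and lowest in the Myh3-led cluster in both libraries, whereas Lamb1 in the Myh3-led cluster stood at 42.6 and 44.5 CPM, a log2 ratio of 0.06 whose interval (-0.26 to 0.39) held 0.

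**Figure D3:**
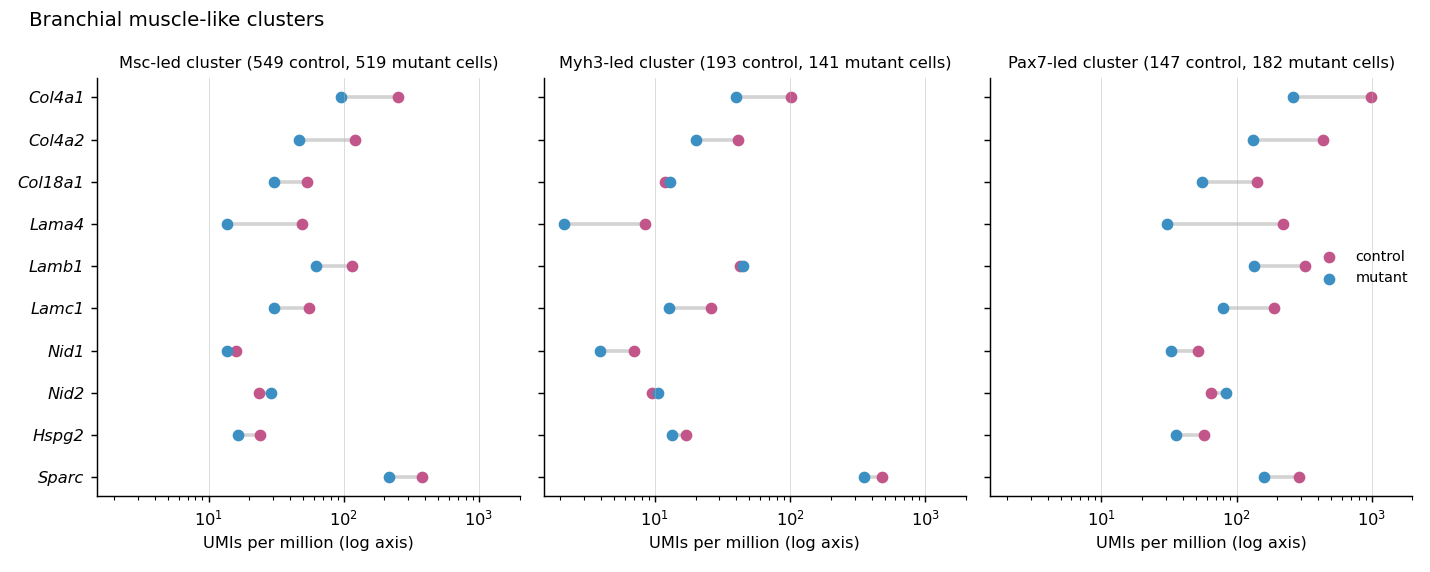
Levels of the 10 genes in the 3 branchial muscle-like clusters, CPM on a log axis, control in pink and mutant in blue, joined by a grey line. The mutant point lies left of the control point for Col4a1, Col4a2, Lama4, Lamc1, Nid1, Hspg2 and Sparc in all 3 clusters, and Nid2 lies to the right.

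Within phases of the cell cycle, 3 of the 10 genes were lower beyond 1.5-fold in G1 (median -0.54), 7 in S (median -1.06) and 4 in G2M (median -0.72). The median over all genes was 0.006, 0.001 and 0.017. No share over all genes is given within phases, so these counts are not compared between phases. Col4a1 had log2 ratios of -1.41, -1.49 and -1.58 in these phases, and of -1.45 in female-like cells. Lamb1 (-0.27) and Col18a1 (-0.43) were closer to control in G1 than in the class, and Nid1 stood at 0.21 there with an interval that held 0 (-0.41 to 0.83). S phase held 38.4% of control and 48.3% of mutant muscle-like cells. The Pax7-led cluster held 16.5% of control and 21.6% of mutant muscle-like cells. Endothelial markers summed to 47.4 CPM in control and 90.4 CPM in mutant muscle-like cells, with 0 of 18 at 0 in either. In the unnamed blood cluster Col4a1 was at 24.5 CPM in control and 7.80 CPM in mutant, and Lama4 at 9.02 and 0.80 CPM. The part of endothelial or free RNA in the muscle-like values was not tested.

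In mesenchyme-like cells, 953 control and 653 mutant, the genes moved in both directions. Of the 10, 1 was lower beyond 1.5-fold (4.07% of 15931 genes) and 1 was higher (5.77%), and the median log2 ratio was -0.16. Lama4 was the lower one, at 134 CPM in control and 66.7 CPM in mutant, -1.01 (-1.13 to -0.89). Nid2 at -0.63, Sparc at -0.54 and Lamb1 at -0.50 lay below 0. Col4a1 at 0.18 and Col4a2 at 0.31 lay above it in the class as a whole, but their intervals held 0 within each of its clusters. Among female-like cells, 931 control and 194 mutant, Col4a1 had 0.56 (0.44 to 0.68), Col4a2 0.62 (0.44 to 0.80) and Lama4 -0.91.

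Col18a1 was the higher one, with 260 UMIs in control, or 13.6 CPM, against 603 UMIs in mutant, or 55.5 CPM, a log2 ratio of 2.03 (1.81 to 2.24). Most of its mutant UMIs, 413 of 603, came from 55 cells, 8.42% of the mutant class, that at resolution 0.8 joined the Gja4-led subcluster also holding endothelium-like cells. In these 55 cells Col18a1 stood at 362 CPM, against 23.6 CPM in 10 control cells with 6 UMIs. They summed to 595 CPM of endothelial, 793 CPM of mesenchymal and 5645 CPM of mural markers. In the remaining 943 control and 598 mutant cells Col18a1 had 254 and 190 UMIs, a log2 ratio of 0.53 (0.25 to 0.81), and no longer lay beyond 1.5-fold. This split was made after seeing the data. Lama4 in the remaining cells had -1.05, close to its value in the class.

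The makeup of the class differed between libraries in a second way. Its smaller cluster, with Adh1, Wnt2 and Hoxb5 at the top, made up 36.1% of the class in control (344 cells) and 10.3% in mutant (67 cells). Sparc had a log2 ratio of 0.42 (0.33 to 0.50) there and of -1.01 (-1.05 to -0.97) in the larger cluster. Col18a1 had 38 UMIs in control and 2 in mutant in the smaller cluster, which gives -1.92 with an interval that held 0 (-5.02 to 0.03). It had 1.65 (1.43 to 1.88) in the larger one. That cluster held 601 of the 603 mutant Col18a1 UMIs, so it took in nearly all of the 413 from the 55 cells above. The larger cluster without those cells was not tested. Lama4 had -1.02 in the smaller cluster and -1.28 in the larger one. For collagen IV the intervals held 0 in both clusters: Col4a1 had -0.17 (-0.40 to 0.06) in the smaller and 0.06 (-0.04 to 0.15) in the larger, and Col4a2 had -0.03 (-0.43 to 0.35) and 0.03 (-0.10 to 0.16).

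Epithelium-like cells, 212 control and 304 mutant, had 0 of 10 genes lower (3.8% of 13710 genes) and 0 higher (3.58%). Among female-like cells, 200 control and 102 mutant, 3 were lower: Lamc1 (-0.99, -1.28 to -0.70), and Lama4 and Nid1 on 1 and 4 mutant UMIs against 21 and 36 in control. No share over all genes is given for the female-like cells. In the whole class, Col18a1 stood at 200 CPM in control and 216 CPM in mutant, a log2 ratio of 0.11 (-0.02 to 0.24). Lamc1 at 123 and 76.9 CPM (-0.68, -0.87 to -0.49) and Sparc at 611 and 407 CPM (-0.58, -0.67 to -0.50) lay below 0, and Hspg2 at 36.5 and 53.7 CPM (0.55, 0.27 to 0.85) lay above it.

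Mesothelium-like cells were the only class of the 7 with collagen IV higher in mutant beyond 1.5-fold. With 70 control and 68 mutant cells, Col4a1 had 146 UMIs in control, or 67.2 CPM, against 184 UMIs in mutant, or 160 CPM, a log2 ratio of 1.25 (0.93 to 1.57), and Col4a2 at 50.6 and 117 CPM, 1.21 (0.84 to 1.59). No gene of the 10 was lower (2.6% of 10955 genes), and these 2 were higher (7.16%), a call lost for both in G1 cells alone. After thinning, 24.3% of control cells (14.8 to 36.0%) and 48.5% of mutant cells (36.0 to 61.1%) held a Col4a1 UMI. Median depth was 28114 UMIs in control and 14080 in mutant, and endothelial markers summed to 129 and 156 CPM.

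The 2 classes with little basement membrane RNA showed lower values. In neuron-like cells, 192 control and 470 mutant, Lama4 (26.1 and 11.8 CPM) and Sparc (213 and 56.8 CPM) were lower beyond 1.5-fold, 2 of 10 against 7.55% of 14265 genes, and none was higher (2.42%). In cardiomyocyte-like cells, 54 and 184, Sparc (353 and 171 CPM) was lower, 1 of 10 against 4.12% of 9776 genes, and none was higher (1.71%). In the unnamed blood cluster Sparc was at 94.2 CPM in control and 46.6 CPM in mutant, and Lama4 at 9.02 and 0.80 CPM, both also lower in mutant. The part of free RNA in the values of these classes was not tested. All 10 log2 ratios lay below 0 in both classes. The whole interval did so for 6 of 10 in neuron-like and 4 of 10 in cardiomyocyte-like cells, and the other intervals held 0. Col4a2 in neuron-like cells (-0.05) passes above 0 with TMM scaling, which adds 0.11 there and 0.15 in cardiomyocyte-like cells. The cardiomyocyte-like median of the 10, -0.75, turned to 0.085 with high-scoring doublets removed, where no gene was lower beyond 1.5-fold.

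**Figure D4:**
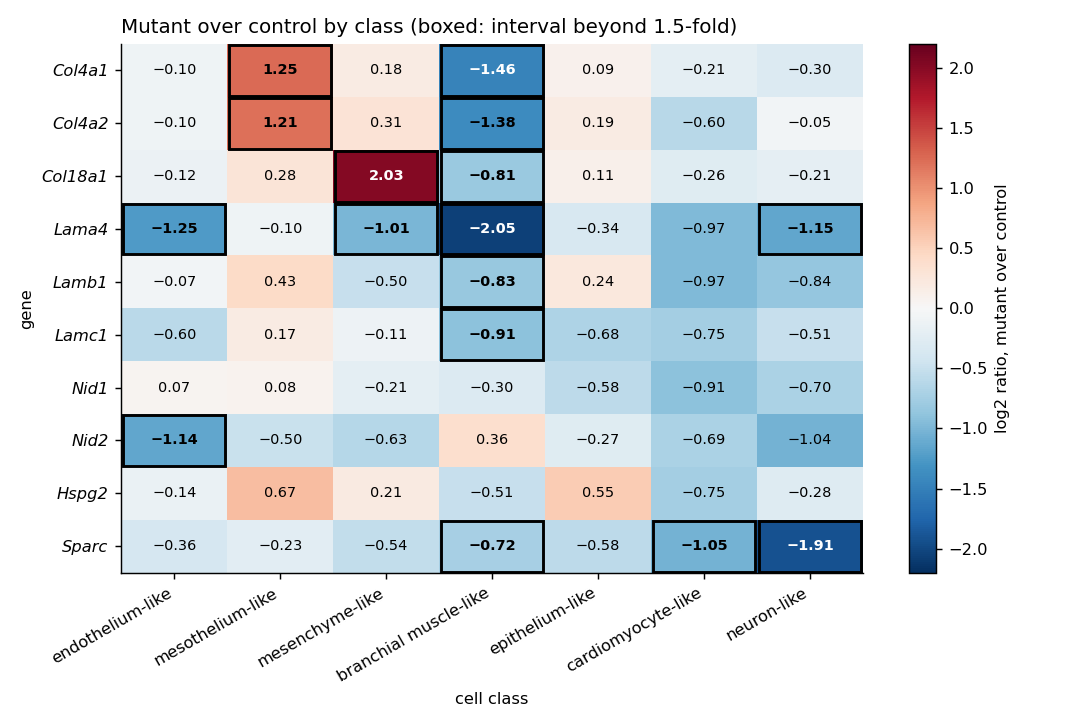
Log2 ratio of mutant over control for the 10 genes (rows) in 7 cell classes (columns), from blue (lower in mutant) to red (higher), with boxes where the counting interval lies beyond 1.5-fold. The muscle-like column holds 7 boxes, and the endothelium-like column holds boxes for Lama4 and Nid2.

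Across classes, Lama4 was the gene most often lower in mutant beyond 1.5-fold. It passed this limit in endothelium-, muscle-, mesenchyme- and neuron-like cells. Its log2 ratio was below 0 in all 7 classes, but its intervals for the mesothelium-like and epithelium-like classes held 0. Sparc was also below 0 in all 7, with the whole interval each time. It lay beyond 1.5-fold in muscle-, neuron- and cardiomyocyte-like cells. The whole interval of Nid1 lay beyond 1.5-fold in none of the 7, with log2 ratios from -0.91 to 0.08. The same held for Hspg2, with ratios from -0.75 to 0.67. The lowest ratio of each was in cardiomyocyte-like cells, on 7 control and 14 mutant UMIs of Nid1 and 13 and 29 of Hspg2.

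The genes around the basement membrane were then compared in endothelium-like cells, in 6 lists; the shares over all endothelial genes, 4.53% lower and 4.75% higher, apply to each count, and several counts are small. Of 12 other basement membrane chains and proteoglycans with at least 20 UMIs, 1 was lower and 0 were higher, with a median log2 ratio of -0.34. The lower gene was Col15a1, the closest relative of Col18a1, at 356 CPM in control and 70.9 CPM in mutant, a log2 ratio of -2.33 (-2.45 to -2.2). Lama5, the other laminin alpha chain of mature vessels, is named here after its values were seen. It had 10 UMIs in control and 97 in mutant, 3.14 and 7.00 CPM. Its log2 ratio of 1.16 had an interval (0.22 to 2.26) that reached inside 1.5-fold. Of these 12 genes, 5 had a ratio above 0 and 7 below 0. Of 20 glycoproteins associated with the basement membrane, 3 were lower and 0 higher, among them Fbln5, a fibulin of elastic fibres (163 and 80.5 CPM, -1.02), and Vwa1, a perlecan-binding protein (36.4 and 15.7 CPM, -1.21), and the median was -0.07.

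Of 18 receptors, 3 were higher and 0 lower (median 0.33, 6 of 18 below 0): Itgb1, the beta 1 integrin through which cells bind laminin and collagen, rose from 719 to 1177 CPM (0.71), the laminin-binding integrin chain Itgb4 from 4.71 to 12.5 CPM (1.41) and the syndecan Sdc4 from 7.53 to 26.4 CPM (1.81). The 15 epithelial markers summed to 13.8 CPM in control endothelium-like cells, with 6 at 0, and to 54.9 CPM in mutant ones, with 0 at 0; their part in the values of Itgb4 and Lama5 was not tested. Of 20 genes for collagen folding, modification and crosslinking, 6 were higher and 0 lower, with a median of 0.38 and 5 of 20 below 0. The prolyl 4-hydroxylase subunits P4ha2 (6.28 and 68.6 CPM, 3.45) and P4ha1 (53.7 and 244 CPM, 2.18) and the lysyl hydroxylase Plod2 (19.1 and 197 CPM, 3.36) had the largest rises, beside a collagen IV message that changed little. Of 21 matrix proteases and inhibitors, 6 were higher and 0 lower (median 0.37, 6 of 21 below 0), among them Adamts5, a protease of matrix proteoglycans (5.96 and 21.4 CPM, 1.84), and Mmp2, a protease that cleaves collagen IV (105 and 232 CPM, 1.14).

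The interstitial matrix list was split. Of 17 genes, 8 were lower and 2 higher, and the median was -0.94. Collagen I chain Col1a1 (39.9 and 7.07 CPM, -2.50), the proteoglycan Dcn (17.9 and 3.54 CPM, -2.34) and elastin, Eln (448 and 116 CPM, -1.95), were among the lower genes, whereas versican, Vcan (20.1 and 79.1 CPM, 1.98), and fibronectin, Fn1 (374 and 701 CPM, 0.91), were higher. The 12 mesenchymal markers summed to 179 CPM in control and 77.2 CPM in mutant endothelium-like cells. The part of mesenchymal RNA in the lower interstitial values was not tested. The interstitial matrix list had a median of -1.17 in muscle-like, -0.97 in mesenchyme-like and -2.53 in neuron-like cells. It had -1.23 in epithelium-like, -1.67 in cardiomyocyte-like and 0.61 in mesothelium-like cells. Its part in the values of the 10 genes in these classes was not tested.

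**Figure D5:**
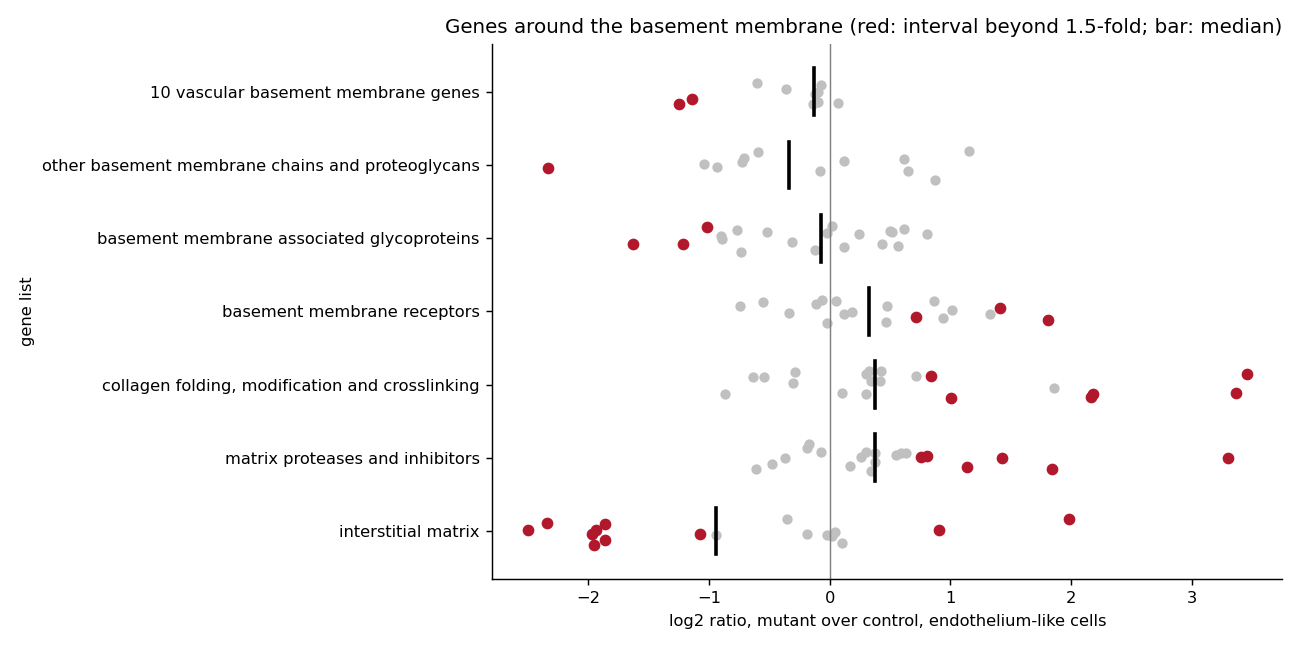
Log2 ratio of mutant over control in endothelium-like cells for genes with at least 20 UMIs in 7 lists, 1 point per gene, red where the counting interval lies beyond 1.5-fold, with a bar at the median of each list. The 10 basement membrane genes have a median of -0.13, the modification enzymes of 0.38 and the interstitial matrix of -0.94. Mmp9, with 0 UMIs in control, is drawn at 1.42, its ratio with control set to the floor of 3 UMIs.

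Finally, genes with a similar pattern were sought. Over the 14 sums of class and library, the genes whose log2(CPM + 1) correlated best with the standardized mean of the 10, among 10455 compared, were Cmtm3 (Pearson's r 0.96), B2m (0.96), Jcad (0.95), Cr1l (0.95) and Cdc42ep1 (0.95). The sums of a library share its embryos and processing. In endothelium-like cells Jcad, which encodes a protein of endothelial junctions, stood at 96 CPM in control and 46.8 CPM in mutant, whereas B2m, the light chain of class I molecules, stood at 270 and 304 CPM. Of the 10 genes themselves, Hspg2 (0.96) and Col4a2 (0.92) lay closest to the mean and Nid2 (0.75) and Lama4 (0.76) farthest from it. Each of the 10 is part of that mean, so these values cannot be set beside those of the other genes.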

How the data were processed

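The authors aligned the reads to GRCm38 (mm10) with Cell Ranger 7.1.0, per the submitters' processing notes, and deposited raw UMI counts per gene and called cell, without normalization. The annotation release and the handling of intronic reads are not given in the sources used here. Cells with over 2000 and under 9000 genes and under 10% mitochondrial UMIs were kept, 2783 of 4505 control and 3489 of 5357 mutant barcodes; the control number is a single cell above that stated by the study. Libraries were integrated in Seurat 5.3.0 (R 4.3.3) by canonical correlation, using 2000 variable genes (the 123 list genes left out), 30 components, 20 neighbours and regression of the cell-cycle scores. The lowest resolution giving at least 15 clusters, 0.3, gave 16. A name needed at least 3 raised markers. Doublets were kept, because Scrublet (scanpy 1.11.5) called 0 control and 1 mutant cells.

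Summed UMIs of each class in each library, scaled to CPM, gave a log2 ratio, mutant over control, in 7 classes; a class needed at least 50 cells per library. Intervals are 95%: Clopper-Pearson for shares, exact Poisson for levels and, for ratios, the exact binomial conditional on the total. A gene at 0 entered at a floor of 3 UMIs. A gene counted as lower or higher where it had at least 20 UMIs and its interval lay beyond 1.5-fold. List genes are named if they had at least 100 UMIs and were among the 3 largest rises or falls past that limit; 1 gene that met this rule is not reported here. The members, lists and markers were chosen with earlier results of these data known. The alternative settings were 14, among them edgeR 4.0.16 TMM scaling, and a further 3 were chosen after seeing the values given here. The ratio intervals were run on simulated independent Poisson counts, the counting error that they assume. That run cannot show how they fare with spread between cells or embryos. Sums and intervals used scipy 1.17.1 with pandas 2.3.3 and numpy 2.4.6 under Python 3.11.15, and plots used matplotlib 3.10.9. Isl1-Cre marks several lineages, and the files hold no eYFP or Cre feature.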

Additional observations from a re-analysis of the deposited data

Results flagged for a closer look

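Col4a1, Col4a2 and Col18a1 moved in opposite directions in 2 cell classes, each beyond 1.5-fold; no difference between classes was tested, since there was 1 library per genotype. Col4a1 had a log2 ratio of -1.46 in branchial muscle-like cells and 1.25 in mesothelium-like cells. Col4a2 had -1.38 and 1.21 in the same classes; in mesothelium-like G1 cells alone neither gene lay beyond 1.5-fold. Col18a1 had -0.81 in branchial muscle-like cells and 2.03 in mesenchyme-like cells, the latter with 413 of 603 mutant UMIs in 55 cells.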

How the results depend on the processing

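In endothelium-like cells, 2 genes were lower beyond 1.5-fold and 0 were higher under all 15 alternatives, and over the 13 that change single values the log2 ratios were -1.26 to -1.12 for Lama4 and -1.22 to -0.80 for Nid2. Outside these alternatives, Lamc1 was also lower beyond 1.5-fold in S-phase cells, and Col4a1, Col4a2 and Sparc were in the smaller subcluster. The median of the 10 genes in endothelium-like cells was -0.012 with TMM scaling, -0.028 with median-ratio scaling, -0.025 as the mean over cells and -0.30 in G1 cells. Col4a1 and Col4a2 turned to 0.021 and 0.020 (TMM), 0.0060 and 0.0051 (median ratio), 0.092 and 0.12 (mean over cells), 0.069 and 0.0059 (thinned cells) and 0.057 and 0.11 (larger subcluster alone); Hspg2 turned to 0.0026 as the mean over cells. In epithelium-like cells 3 genes were lower in female-like cells. In muscle-like cells the median was -0.94 with classes from marker counts, -0.94 as the mean over cells and -0.54 in G1 cells, where 3 genes were lower. In mesenchyme-like cells the median was -0.53 (4 lower) with marker counts, -0.32 (2 lower, 0 higher) at resolution 0.8, -0.33 (2 lower) in thinned cells, 0.018 in female-like cells, -0.38 (4 lower) in the largest cluster alone and -0.32 (2 lower, 0 higher) without the Gja4-led subcluster; 3 were lower as the mean over cells and 3 in G1 cells. In neuron-like cells 5 were lower with marker counts, 1 in thinned cells (median -0.13) and 5 in female-like cells (median -1.07). In cardiomyocyte-like cells 2 were lower with marker counts and 0 with doublets removed (median 0.085), 0 in thinned and 0 in female-like cells. In mesothelium-like cells the median was 0.49 in female-like cells, and 0 were higher in G1 cells. TMM scaling moved the mesothelium-like values by -0.12. The cause of these shifts was not tested. Counts of lower or higher genes under these settings have no share over all genes beside them. They are not read against the shares given for the whole classes. No paired analysis was possible because there was 1 library per genotype, and no library could be left out. Of the 7 classes, the fewest control UMIs were in cardiomyocyte-like cells (866094) and the fewest mutant UMIs in mesothelium-like cells (1150556).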
